A study of Mus musculus with 12 samples.

Results

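The genes described here are 35 genes of fatty acid oxidation and targets of the nuclear receptor PPAR-alpha. They were measured by RNA sequencing in the ileum, the last stretch of the small intestine, of 12 C57BL/6 mice. They were chosen by name, as genes of mitochondrial and peroxisomal beta-oxidation with classical PPAR targets, and all 35 were found among the 44205 genes of the expression table. The mice were 16 weeks old and had spent the last 10 weeks, from the age of 6 weeks, on 1 of 4 regimens with 3 mice each. The NF group received a normal fat diet and plain water, and the NF-Sugar group the same pellets with a sugar drink (23% w/v). The HF group received a high fat diet (60% of calories as fat) and plain water, and the HF-Sugar group the high fat diet with the sugar drink. The study calls NF the normal diet and HF-Sugar the Western diet. All mice were of the wild-type strain, and no allele or other agent differed between the groups. Each library came from ileum tissue of 1 mouse, which the paper, for its normal and Western diet mice, calls terminal ileum. The sex of each mouse was not given in the labels.

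Fatty acids are burned in mitochondria after the carnitine shuttle has carried them across the inner membrane. Each turn of the beta-oxidation spiral shortens the acyl chain and passes electrons to the respiratory chain, while peroxisomes shorten chains that are too long for mitochondria. PPAR-alpha, which binds DNA as a pair with a retinoid X receptor, is activated by fatty acids and is known to switch on most of these enzymes in liver and in the absorptive enterocytes of the small intestine.

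The element that PPAR pairs bind is a direct repeat of AGGTCA with 1 base between the copies, and it was searched for, on both strands, as AGGTCA, any base (N) and AGGTCA again in the 250 bases before each RefSeq start (GRCm38.p6). Promoters of 29 of the 35 genes were searched. None of the 29 genes held the motif with 1 mismatch or fewer. With up to 2 mismatches in the 12 fixed bases, 3 of the 29 genes (10.3%) held it. Among all 32851 promoters, 0.484% held it with 1 mismatch or fewer and 3.24% with up to 2. The set was counted by gene and the background by promoter, so the shares cannot be compared directly and no enrichment is read from them. These 3 matches are shown because they are the places in the promoters of the set most like the element that gives the PPAR targets their name; capitals mark the 13 bases of the match, and all 3 genes lie on the minus strand of the genome, so that the stretches are written 5′ to 3′ along the gene. A match is a description of the letters and not a site of binding.
Creb3l3: ctgtaagtAGGGGAGAGGTCAcacagacc
Etfa: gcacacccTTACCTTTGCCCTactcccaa
Plin2: agctttcaGGACCCCTGACCTaagtcaga
The Creb3l3 stretch (chr10:81092780-81092808) ends its match 196 bases before a RefSeq start and overlaps an exon of a longer Creb3l3 transcript in GENCODE, whereas the Etfa stretch (chr9:55512300-55512328) and the Plin2 stretch (chr4:86670264-86670292) lie 64 and 212 bases before their starts, outside any annotated gene. Etfa and Plin2 hold the repeat on the strand opposite to the gene.

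Library depth, recovered from the steps of low values, was 15273100 to 38997400 reads, of which 73.3% to 81.4% lay in genes. By this measure every value of the 35 genes rested on about 53.9 to 16289.7 reads. Along the main axis of variation across all genes, which held 39.7% of the variance, 4 libraries stood apart from the other 8, namely NF M2, NF-Sugar M1, HF M2 and HF-Sugar M2 (M1 to M3 number the mice of a group). These 4 had the lowest shares of reads in genes, 73.3% to 73.9% against 77.04% or more in the others, and the lowest sums of ileal enterocyte markers, 3061 to 3275 RPKM, and the part of either in the results below was not tested. The tissue label was borne out by its markers, since all 11 enterocyte markers and all 4 ileal enterocyte markers were detected, with sums of 6244 to 16611 and 3061 to 10514 RPKM, where RPKM are reads scaled to exon length and library depth.

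The 35 genes were expressed in all 12 libraries, at mean levels from 2.05 RPKM for Ppargc1a to 105 RPKM for Etfb. Among the carriers of the carnitine shuttle, Cpt1a, the rate-limiting carnitine palmitoyltransferase of the outer membrane, averaged 33.7 RPKM, Slc25a20, the carnitine-acylcarnitine translocase, 20.0, Cpt2, which rebuilds the acyl-CoA inside, 55.8, and Crat, the short-chain acetyltransferase, 14.0 RPKM. In the spiral, the acyl-CoA dehydrogenases Acadvl, Acadl, Acadm and Acads, ordered here from very long to short chains, averaged 48.8, 47.5, 22.3 and 58.9 RPKM. The subunits of the trifunctional protein differed in level, with 28.5 RPKM for Hadha and 6.03 RPKM for Hadhb, while the hydroxyacyl-CoA dehydrogenase Hadh averaged 68.4 and the thiolase Acaa2 80.2 RPKM. Etfa and Etfb, the subunits of the flavoprotein that takes up the electrons, averaged 12.7 and 105 RPKM, and Etfdh, which hands them to ubiquinone, 6.11 RPKM. The enzymes that deal with double bonds were led by Ech1 at 72.3 and Eci1 at 30.2 RPKM, with Decr1, Decr2 and Eci2 between 7.68 and 9.26 RPKM. In peroxisomes, Acaa1a and Acaa1b, a pair of thiolases, averaged 43.4 and 24.8 RPKM, the multifunctional enzymes Hsd17b4 and Ehhadh 24.7 and 16.0 RPKM. The thioesterases Acot1 and Acot2, which split acyl-CoA, averaged 4.29 and 5.38 RPKM. Acsl5, which activates fatty acids to acyl-CoA, averaged 90.3 RPKM against 2.69 RPKM for its relative Acsl1. Among the other PPAR targets, the pantetheinase Vnn1 averaged 60.3, Ucp2 49.5, Angptl4 22.8, Plin2 20.9 and Pdk4 3.63 RPKM, and the transcription factor Creb3l3 79.9 RPKM.

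The genes varied among the 12 mice to very different degrees. The ratio of the highest to the lowest library was at most 1.62 for 8 genes, namely Acadm, Eci2, Cpt2, Cpt1a, Acads, Ech1, Acsl1 and Ucp2, with Acadm at 1.35, and reached 14.98 for Angptl4, 7.65 for Pdk4, 4.56 for Acaa1b and 4.18 for Creb3l3. Single mice held many of the extremes, with the highest of the 12 values found in NF M3 for 14 genes and in HF M1 for 13 genes.

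**Figure D1:**
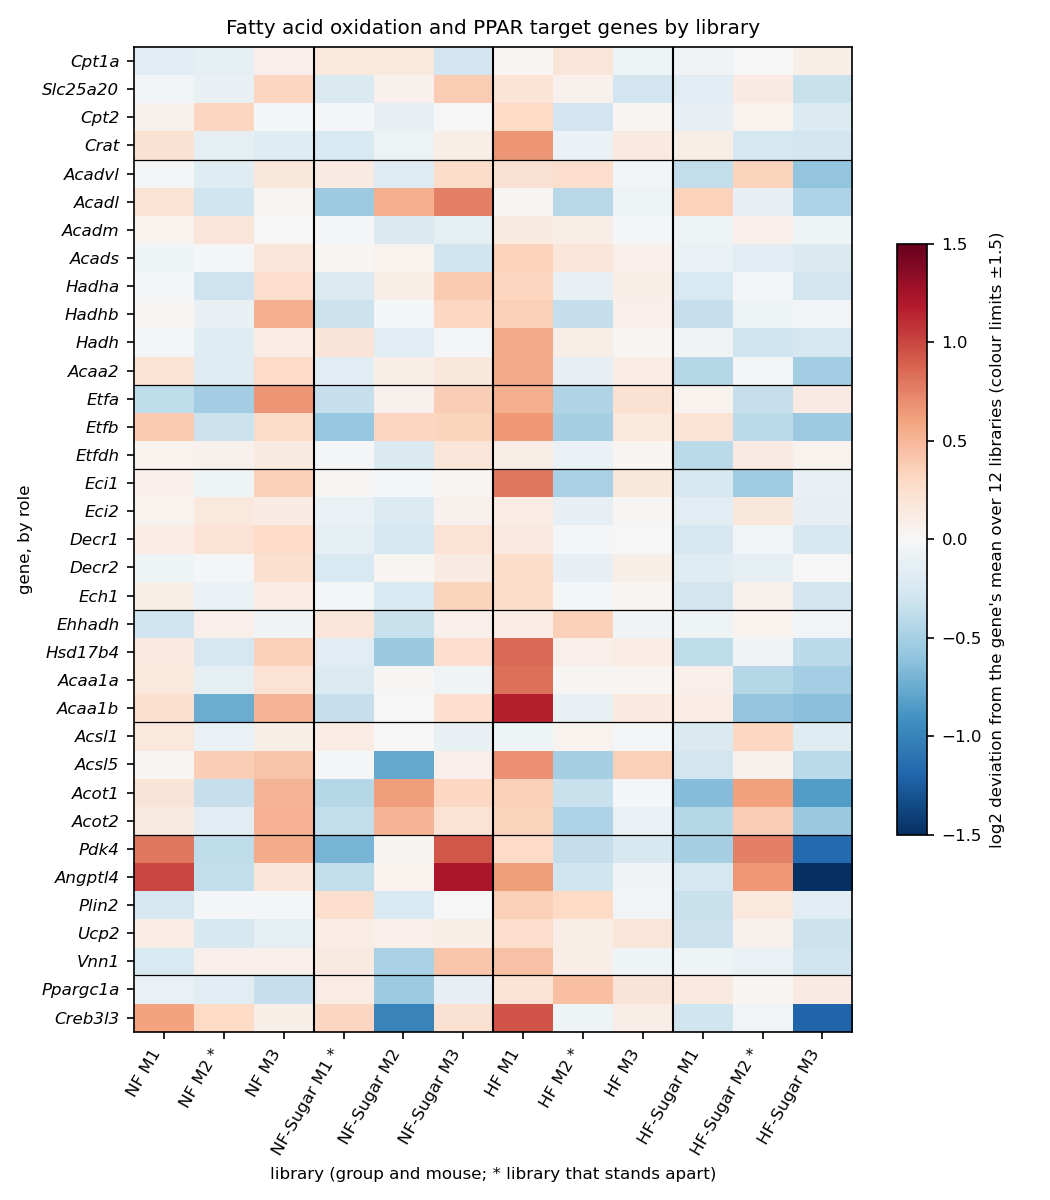
Heat map of the 35 genes (rows, grouped by role between horizontal lines) in the 12 libraries (columns, grouped by regimen), coloured by the log2 deviation of each gene from its own mean over the 12 libraries on the log2(scaled RPKM + 1) scale. HF M1 is above the mean for 34 of 35 genes and HF-Sugar M3 for 4, and Pdk4, Angptl4, Acot1 and Acot2 change from mouse to mouse within every group.

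The first comparison asks what high fat alone did to these genes. Between HF and NF mice no member passed an adjusted p under 0.05 (limma on log2 of scaled RPKM + 1, Benjamini-Hochberg adjustment over 17662 genes; 0% of all genes tested were called), and the 35 genes were spread around no difference, with 16 lower, 19 higher and a median log2 difference of 0.03 (51.4% of all genes were lower, with a median of -0.01). Here and below, counts of genes lower or higher are by the sign of this log2 difference of scaled values. The largest positive value was that of Ppargc1a (chr5:51454250-51567726, minus strand), the coactivator that drives mitochondrial biogenesis and works with PPAR-alpha. Its level was 1.65, 1.49 and 1.58 RPKM in NF, 2.09, 1.07 and 1.82 in NF-Sugar, 2.46, 3.14 and 2.49 in HF and 2.303, 2.01 and 2.49 in HF-Sugar mice. All 3 HF mice were above all 3 NF mice, and so were all 3 HF-Sugar mice, with NF-Sugar M1 and M3 above NF and M2 below (positions here and below are GRCm38 gene spans of GENCODE M21). The log2 difference between HF and NF was 0.48 ± 0.16 (SE; unadjusted p = 0.0115, limma adjusted p = 0.9998), and Ppargc1a was the only member with an unadjusted p under 0.05 in the higher direction, where 1.96% of all genes were. Ucp2 (chr7:100493337-100502020, plus strand), a mitochondrial inner membrane carrier, was the other gene whose HF values all lay above NF, at 59.2, 53.1 and 57.1 RPKM against 48.7, 36.4 and 51.6, and 5.37% of all genes separated the groups in this direction. In a bulk sample, fewer cells of a type and less RNA per cell cannot be told apart.

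By role, the 4 genes grouped as peroxisomal (Ehhadh, Hsd17b4, Acaa1a and Acaa1b) were all higher in HF than NF mice (log2 0.22 to 0.40). Decr2 and Eci2, grouped with the double-bond enzymes and not among these 4, were at 0.03 and -0.11. The 4 genes of acyl-CoA synthesis and hydrolysis were all lower (-0.25 to -0.06). None of these genes was past the test. Pdk4 (chr6:5483351-5496309, minus strand), the kinase that inhibits pyruvate dehydrogenase, had the lowest value, -0.42 ± 0.53 (SE), on levels of 4.13, 2.28 and 2.62 RPKM in HF and 5.72, 1.95 and 5.97 in NF mice, which overlapped. The direction of the HF and NF median rested on single mice, since it turned to -0.05 without HF M1 and to -0.017 without NF M2.

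Sugar on the normal fat diet was compared between NF-Sugar and NF mice. No member was called here either (adjusted p, 0% of all genes called), none had an unadjusted p under 0.05, and 21 of 35 genes were lower and 14 higher, with a median of -0.05 (53.1% of all genes lower). Acadm, the medium-chain acyl-CoA dehydrogenase, was the only gene whose groups did not overlap. Its 3 NF-Sugar values, 20.5, 19.1 and 20.7 RPKM, lay just below the 3 NF values, 21.1, 22.3 and 25.8 RPKM, a separation in this direction that 2.64% of all genes showed, and the log2 difference was -0.20 ± 0.12 (SE). The lowest value belonged to Acsl5 (-0.51 ± 0.32). The 5 enzymes of double-bond handling were all lower, from -0.27 for Decr1 to nearly no difference for Ech1. Without NF M3 the median turned to 0.02.

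The combined regimen, HF-Sugar against NF, is the contrast of Western and normal diet. No member passed the adjusted threshold (0% of all genes did), but 31 of the 35 genes were lower in HF-Sugar mice, with a median log2 difference of -0.19, whereas 51.9% of all genes were lower and their median was -0.01. The share depends on level, since at a mean of at least 5 RPKM 62% of all genes were lower, beside 28 of 31 members. Every one of the 8 genes of the mitochondrial spiral, the 5 double-bond enzymes and the 4 genes of acyl-CoA synthesis and hydrolysis had a log2 difference below zero, and Cpt1a, Etfa, Ehhadh and Ppargc1a had one above zero, although the mean RPKM as deposited was lower for Etfa (11.9 against 12.6) and higher for Plin2 (19.4 against 19.1) in HF-Sugar mice. The median SE of a log2 difference over all genes was 0.18.

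Decr1 (chr4:15917240-15945507, minus strand), the dienoyl-CoA reductase needed for polyunsaturated chains, was the only member with an unadjusted p under 0.05 here, in the lower direction, where 1.88% of all genes were. Its level was 8.93, 9.29 and 12.8 RPKM in NF, 7.49, 7.33 and 10.9 in NF-Sugar, 10.1, 8.81 and 9.195 in HF and 7.24, 8.43 and 8.06 in HF-Sugar mice. The HF-Sugar values all lay below NF, and the log2 difference was -0.38 ± 0.14 (SE; unadjusted p = 0.0203, limma adjusted p = 0.9904). Creb3l3 (chr10:81084324-81098874, minus strand), a liver and gut transcription factor that works with PPAR-alpha, also separated the groups, which 2.97% of all genes did in the lower direction. Its level was 104, 81.4 and 91.9 RPKM in NF, 87.5, 37.2 and 91.2 in NF-Sugar, 146, 71.7 and 82.4 in HF and 60.2, 70.7 and 34.9 in HF-Sugar mice, with the lowest values in HF-Sugar M3 and NF-Sugar M2 and the highest in HF M1, and its log2 difference was -0.84 ± 0.42 (SE; unadjusted p = 0.0713, limma adjusted p = 0.9904). Ppargc1a separated HF-Sugar from NF in the higher direction, as 7.21% of all genes did, with a log2 difference of 0.30 ± 0.16 (SE).

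Of the textbook PPAR targets, Angptl4 and Pdk4 varied widely between mice and Cpt1a and Plin2 little. Angptl4 (chr17:33773750-33781830, minus strand), a secreted inhibitor of lipoprotein lipase, was at 36.9, 13.1 and 25.7 RPKM in NF, 13.9, 20.4 and 48.4 in NF-Sugar, 30.8, 15.8 and 19.2 in HF and 15.9, 30.2 and 3.23 in HF-Sugar mice. It was lowest in HF-Sugar M3 and highest in NF-Sugar M3, the groups overlapped, and its log2 difference between HF-Sugar and NF was -0.94 ± 0.70 (SE; unadjusted p = 0.21, limma adjusted p = 0.9904). Pdk4 ranged from 0.945 RPKM in HF-Sugar M3 to 7.22 RPKM in NF-Sugar M3. Its 3 HF-Sugar values were 1.95, 5.94 and 0.945 RPKM and its log2 difference was -0.62 ± 0.53 (SE; unadjusted p = 0.26, limma adjusted p = 0.9929). Cpt1a differed by less than its error, at 0.09 ± 0.16 (SE; unadjusted p = 0.59, limma adjusted p = 0.9978), on 27.4, 26.5 and 40.95 RPKM in NF and 31.8, 32.6 and 38.9 in HF-Sugar mice. Plin2, which coats lipid droplets, was at 15.8, 17.9 and 23.7 RPKM in NF and 16.03, 22.4 and 19.9 in HF-Sugar mice, a log2 difference of -0.02 ± 0.18 (SE; unadjusted p = 0.91, limma adjusted p = 0.9998), whose sign turned to 0.03 on RPKM as deposited. Leaving out the 4 libraries that stood apart, so that M1 and M3 of both groups remained, moved the median of the set to -0.37 and left 32 of 35 genes lower. Then 7 members, namely Acadvl, Acaa2, Acsl1, Acot1, Acot2, Pdk4 and Angptl4, had an unadjusted p under 0.05 in the lower direction, where 4.12% of all genes did, and none passed the adjusted threshold. Without HF-Sugar M2 alone there were also 7 such members (2.94% of all genes), and without NF M3, HF-Sugar M1 or HF-Sugar M3, or on RPKM as deposited, there were 0. With same-numbered mice as pairs in these groups (replicate block), Eci1, Decr1, Acsl5 and Creb3l3 were at an unadjusted p under 0.05, against 3.24% of all genes, and none was called.

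**Figure D2:**
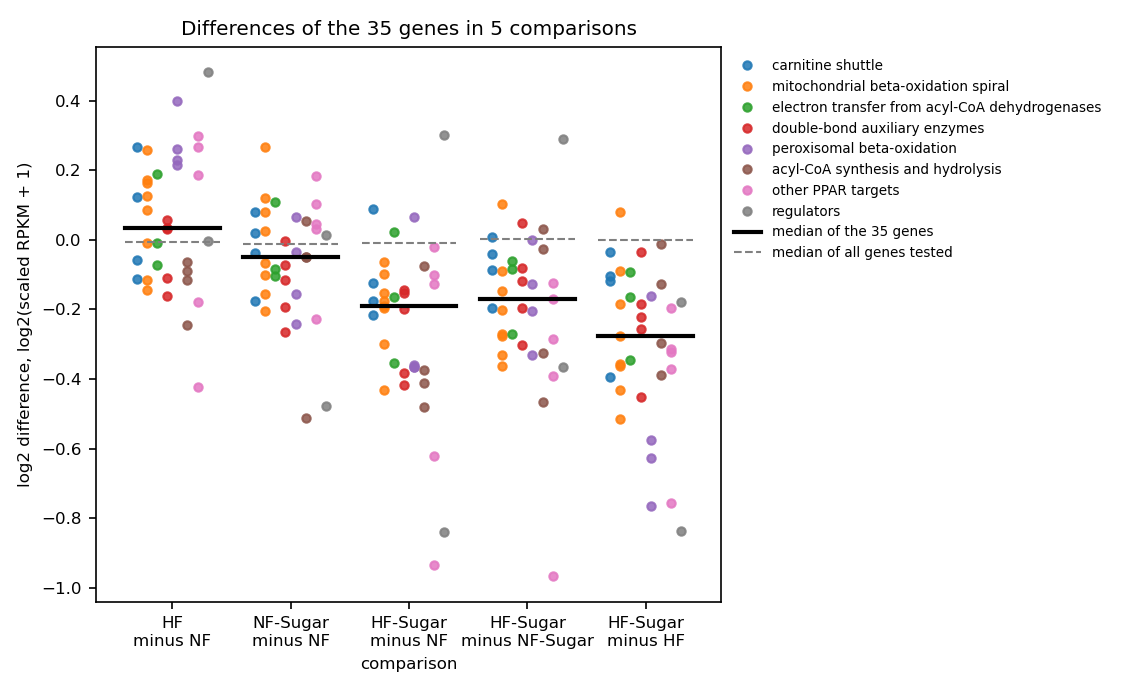
Log2 differences of the 35 genes on the log2(scaled RPKM + 1) scale in 5 comparisons, 1 point per gene, coloured by role; the black bar is the median of the 35 genes and the dashed line the median of all 17662 genes tested. The bar lies at 0.03 for HF minus NF and at -0.28 for HF-Sugar minus HF, where 34 of 35 points are below 0.

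Adding the sugar drink to the high fat diet, HF-Sugar against HF, gave the most uniform picture. Of the 35 genes, 34 had a log2 difference below zero, Acadl being the exception (the mean RPKM of Acsl1 was also level, at 2.67 with and 2.66 without sugar), and the median was -0.28, while 50.1% of all genes were lower and their median was close to zero. At a mean of at least 5 RPKM 56.9% of all genes were lower, beside 30 of 31 members. No member was called (0.00566% of all genes were, which is 1 gene), yet 6 had an unadjusted p under 0.05 in the lower direction, where 2.32% of all genes did. They were Acads, Hadh and Acaa2 of the mitochondrial spiral, Hsd17b4 and Acaa1a of the peroxisome, and Ucp2. HF-Sugar and HF values did not overlap for 7 genes, namely Acads, Hadh, Decr1, Hsd17b4, Ucp2, Vnn1 and Creb3l3, all lower, where 5.15% of all genes were.

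Acads (chr5:115110299-115119346, minus strand), the short-chain dehydrogenase, was at 74.8, 66.8 and 62.99 RPKM in HF and 53.7, 50.2 and 54.7 in HF-Sugar mice. The log2 difference was -0.36 ± 0.15 (SE; unadjusted p = 0.0337, limma adjusted p = 0.9999). The NF values, 50.8, 50.2 and 76.9 RPKM, spanned both groups. Hadh (chr3:131233419-131272101, minus strand), the next dehydrogenase of the spiral, was at 101, 72.9 and 70.1 RPKM in HF and 64.2, 52.8 and 61.6 in HF-Sugar mice, with a log2 difference of -0.43 ± 0.18 (SE; unadjusted p = 0.037, limma adjusted p = 0.9999). The NF and NF-Sugar values of Hadh, 52.2 to 84.5 RPKM, covered the range of HF-Sugar and part of that of HF. Acaa1a, the peroxisomal thiolase, was at 76.01, 42.7 and 43.9 RPKM in HF and 43.9, 30.2 and 31.9 in HF-Sugar mice, with a log2 difference of -0.58 ± 0.24 (SE; unadjusted p = 0.0379, limma adjusted p = 0.9999). Here HF M1 stood far above the other mice and HF-Sugar M1 was level with HF M3. Hsd17b4, the peroxisomal multifunctional enzyme, was at 43.8, 25.2 and 26.2 RPKM in HF and 17.7, 22.1 and 19.4 in HF-Sugar mice, with a log2 difference of -0.63 ± 0.27 (SE; unadjusted p = 0.0405, limma adjusted p = 0.9999). Ucp2 was at 38.7, 49.97 and 42.7 RPKM in HF-Sugar mice, all below the HF values given above, with a log2 difference of -0.37 ± 0.15 (SE; unadjusted p = 0.0334, limma adjusted p = 0.9999). The 4 genes grouped as peroxisomal had the lowest median of the enzyme groups, -0.60. It was -0.32 for the 8 genes of the spiral and -0.11 for the 4 of the carnitine shuttle. Decr2 and Eci2, grouped with the double-bond enzymes, were at -0.18 and -0.03.

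Single mice carried much of this comparison. HF M1 held the highest HF value for 30 of the 35 genes, and without it the median was -0.17, 30 genes were lower and no gene had an unadjusted p under 0.05 (1.05% of all genes did, in the lower direction). Without HF-Sugar M3, 29 genes were lower and again none had an unadjusted p under 0.05. On RPKM as deposited 1 member, Ucp2, had an unadjusted p under 0.05 in the lower direction (1.99% of all genes), and with the 2 compared groups alone in the fit 2 did, Acads and Hsd17b4 (2.2%). Without the 4 libraries that stood apart, so that M1 and M3 of both groups remained, the median was -0.42 with 34 genes lower, and 10 members against 3.29% of all genes had an unadjusted p under 0.05. With same-numbered mice as pairs (replicate block in these groups) there were 7 such members, against 5.71% of all genes, and none passed the adjusted threshold in any of these fits.

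**Figure D3:**
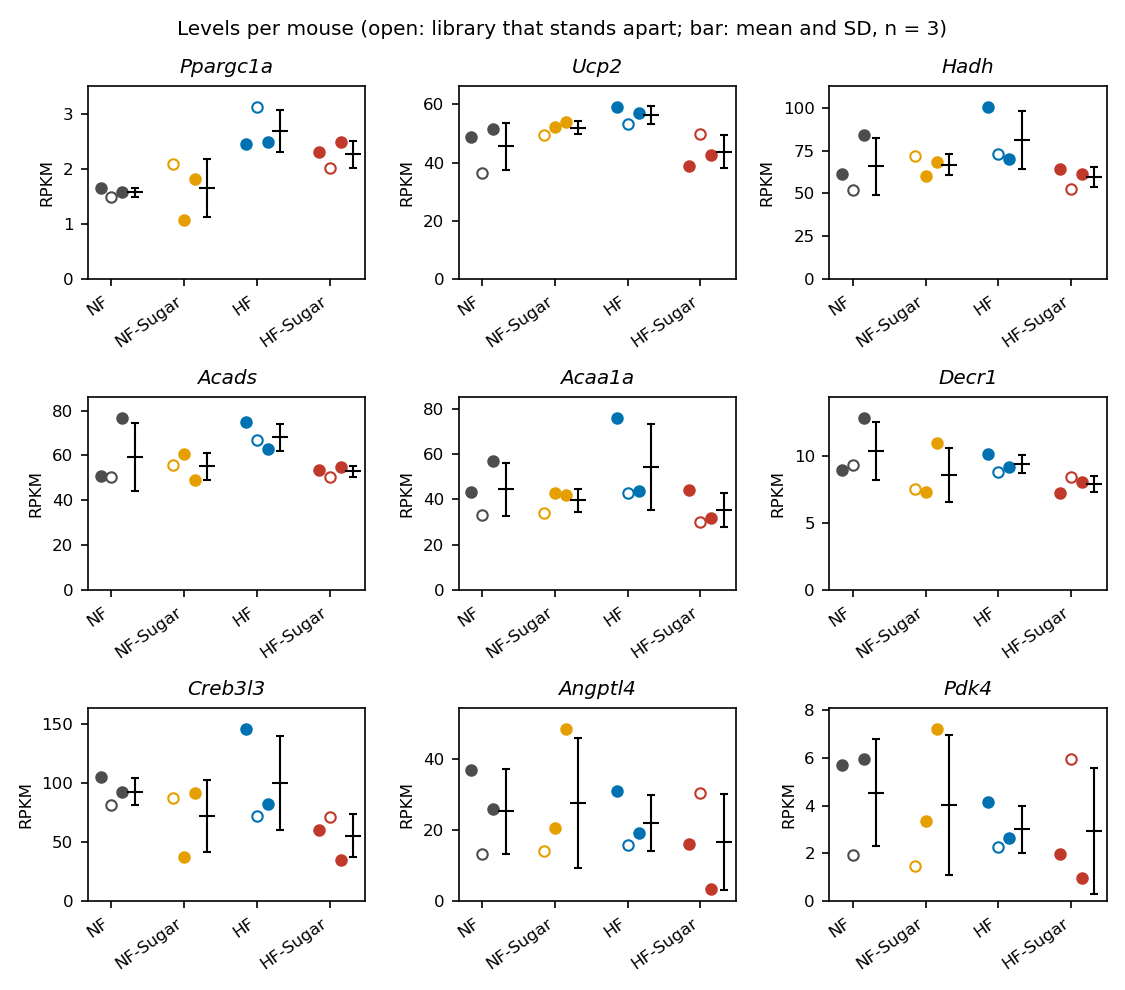
Level of 9 genes in RPKM as deposited (y axis, from 0) in the 3 mice of each group (points, M1 to M3 from left to right; open points are libraries that stood apart), with the mean and SD (n = 3) as a black bar. Ppargc1a is higher in HF than in NF mice without overlap, Ucp2, Hadh, Acads, Decr1 and Creb3l3 are lower in HF-Sugar than in HF mice without overlap, and Angptl4 and Pdk4 overlap between all groups.

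High fat under the sugar drink, HF-Sugar against NF-Sugar, had 29 genes lower and 6 higher with a median of -0.17 (49.3% of all genes lower). No member was called (0.00566% of all genes were) and none had an unadjusted p under 0.05. Acadm was the only gene without overlap, with HF-Sugar at 20.8, 22.8 and 23.1 RPKM above all NF-Sugar values, as 4.29% of all genes were, and a log2 difference of 0.10 ± 0.12 (SE). Without NF-Sugar M3 the median was -0.08. Without the 4 libraries that stood apart, Acadl, Hadha, Acaa2, Acot1, Acot2, Pdk4 and Angptl4 had an unadjusted p under 0.05 in the lower direction (2.84% of all genes) and Ppargc1a in the higher (3.03%), and without HF-Sugar M2 alone 4 members did in the lower direction (1.55%).

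The averages over both diets or drinks and the interaction use all 12 mice. Fat averaged over drinks gave 22 genes lower and 13 higher with a median of -0.05 (50.8% of all genes lower, 0% called). Without HF M2 the median turned to 0.011. On RPKM as deposited the split was 18 to 17, and 40.4% of all genes were lower. Ppargc1a had an unadjusted p under 0.05 in the higher direction, as 1.72% of all genes did, with 0.39 ± 0.11 (SE; unadjusted p = 0.00574, limma adjusted p = 1). Its 6 values on high fat, from 2.01 to 3.14 RPKM, overlapped the 6 on normal fat, from 1.07 to 2.09 RPKM, through NF-Sugar M1 alone. In the same contrast Cpt1a was at 0.06 ± 0.11, Plin2 at 0.09 ± 0.13, Pdk4 at -0.41 ± 0.37 and Angptl4 at -0.57 ± 0.50 (SE), and none of these 4 was past the test.

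Sugar averaged over diets gave 33 genes lower, all but Cpt1a and Acadl, with a median of -0.14 (52% of all genes lower, 0% called). Decr1 (-0.24 ± 0.10), Hsd17b4 (-0.43 ± 0.19) and Creb3l3 (-0.66 ± 0.30) had an unadjusted p under 0.05, against 2.01% of all genes in that direction, and none did without HF M1, NF M3 or HF-Sugar M3. Without HF M1 the median was -0.09. The interaction, which tests whether sugar acted differently on the high fat than on the normal fat diet, was below zero for 27 genes with a median of -0.26 (49% of all genes, 0% called), and was -0.13 without HF M1. Ucp2 was the only member with an unadjusted p under 0.05 (-0.55 ± 0.21 (SE; unadjusted p = 0.0264, limma adjusted p = 0.9998); 1.05% of all genes in that direction), and its level was 49.5, 52.3 and 54.1 RPKM in NF-Sugar mice, values that overlapped those of NF and of HF mice. The comparisons with NF share the NF mice, and those with HF-Sugar the HF-Sugar mice, so that their values are not independent.

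From mouse to mouse, groups of members moved with a wide range inside each regimen. The median deviation of the 35 genes from their own means was highest in HF M1 (0.33, 34 genes above their mean) and lowest in HF-Sugar M3 (-0.27, 4 genes) and HF-Sugar M1 (-0.22, 7 genes), with HF-Sugar M2 at 0.01. The SD between mice of a group was 0.17 for this measure. The HF-Sugar mice were split for the thioesterases. Acot1 was at 4.32, 2.57 and 7.02 RPKM in NF, 2.53, 6.76 and 5.37 in NF-Sugar, 5.43, 2.97 and 4.001 in HF and 2.14, 6.43 and 1.94 in HF-Sugar mice, and Acot2 at 3.54, 6.7004 and 3.44 RPKM in HF-Sugar and 5.27, 3.97 and 8.996 in NF mice. For Acot1, Acot2, Pdk4 and Angptl4 alike, HF-Sugar M2 held the highest and M3 the lowest HF-Sugar value. HF-Sugar M2 is 1 of the 4 libraries that stood apart. Without these 4 libraries the log2 difference between HF-Sugar and NF was -1.11 ± 0.20 for Acot1, -1.51 ± 0.36 for Pdk4 and -1.92 ± 0.73 for Angptl4 (SE), against -0.41 ± 0.40, -0.62 ± 0.53 and -0.94 ± 0.70 with all 12. That fit leaves M1 and M3 of both groups and removes the HF-Sugar mouse by whose high values these genes were picked. The larger differences therefore follow in part from that choice, and no member passed the adjusted threshold. With a term for the 4 libraries in a fit to all 12, Decr1 alone had an unadjusted p under 0.05 in this contrast (lower, as 3.52% of all genes were).

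Sums of cell type markers also differed between libraries. The sum of 11 enterocyte markers was highest in HF M1 (16611 RPKM), was 7225 RPKM in HF-Sugar M3 and lowest in NF-Sugar M2 (6244 RPKM). It ran from 9862 to 12418 in NF, 6244 to 11586 in NF-Sugar, 10009 to 16611 in HF and 7225 to 9668 in HF-Sugar mice. HF-Sugar did not overlap NF or HF, and lay within the range of NF-Sugar. Apoa1, at a mean of 5390 RPKM, dominated this sum. It was at 10097, 5718 and 4680 RPKM in HF M1 to M3. These and its NF values (7328, 4654 and 6520 RPKM) overlapped those of HF-Sugar (3901, 4693 and 3261 RPKM). The sum is therefore not a measure of enterocyte number alone. The sum of 10 adipocyte markers ran from 37.3 to 174 RPKM in NF, 37.1 to 119 in NF-Sugar, 42.0 to 107 in HF and 24.7 to 58.3 RPKM in HF-Sugar mice, and all 8 adipocyte markers tested were lower in HF-Sugar than in NF mice (median log2 difference -0.79). In the same comparison 1 of the 11 enterocyte markers was higher, with a median of -0.17, while all 6 crypt (0.19), all 6 B and plasma cell (0.39) and all 6 macrophage markers (0.15) were higher. Pck1 and Cidec, at means of 24.2 and 19.2 RPKM, gave the largest parts of the adipocyte sum, and Cidec is also among the 71 further genes described below. Adipoq, the hormone of fat cells, was between 0 and 11.3 RPKM. In NF-Sugar M1, Pck1 was at 16.9 and Cidec at 18.2 RPKM with Adipoq at 0, so that the adipocyte sum need not follow fat cells. Smooth muscle markers summed to 407 to 752 RPKM in HF-Sugar and 436 to 792 in NF mice. None of the 7 smooth muscle markers tested was higher in HF-Sugar mice (median -0.30), and of the 6 T cell markers 3 were (median -0.02). The part of these cell types in the values of the 35 genes was not tested.

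**Figure D4:**
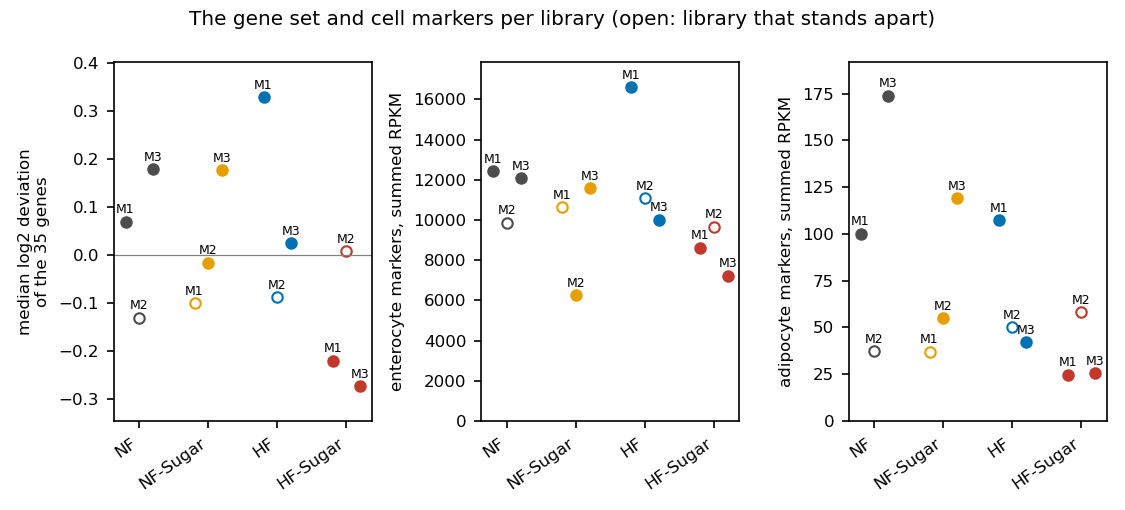
Measures per library (points labelled M1 to M3, grouped by regimen on the x axis; open points are libraries that stood apart): the median log2 deviation of the 35 genes, and the summed RPKM of 11 enterocyte and of 10 adipocyte markers. HF M1 is highest in the first 2 panels, at 0.33 and 16611 RPKM, and HF-Sugar M1 and M3 are lowest in the first and the third.

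Of 71 further genes of PPAR signalling, peroxisomes, ketogenesis and lipid handling, 60 were tested and none was called in any comparison. In HF-Sugar against NF, 51 of the 60 were lower with a median of -0.15 (51.9% of all genes were lower). In HF-Sugar against HF 45 were lower with a median of -0.16 (50.1%). At a mean of at least 5 RPKM these shares of all genes were 62% and 56.9%, a filter not applied to the 60 here. Among the PPAR receptor genes, Ppara and Pparg were expressed at low levels, with means of 3.85 and 1.69 RPKM. Ppard was higher, at a mean of 34.9 RPKM (26.4 to 43.5). Ppara was at 3.01, 2.91 and 3.84 RPKM in NF, 5.28, 2.78 and 3.31 in NF-Sugar, 5.28, 4.16 and 4.72 in HF and 3.96, 3.15 and 3.84 in HF-Sugar mice, with all 3 HF mice above all 3 NF mice, as 5.37% of all genes were, and a log2 difference of 0.39 ± 0.19 (SE). Pparg, the receptor of fat cells and colonic epithelium, was at 2.502, 2.22 and 2.202 RPKM in NF, 1.34, 1.29 and 1.44 in NF-Sugar, 1.83, 1.43 and 1.88 in HF and 1.07, 1.34 and 1.71 in HF-Sugar mice. The 3 NF mice were the highest of the 12, and its log2 difference from NF was -0.53 ± 0.12 (SE; unadjusted p = 0.00146, limma adjusted p = 0.9904) in HF-Sugar, -0.51 ± 0.12 in NF-Sugar and -0.33 ± 0.12 in HF mice, none of them called. Of all genes, 2.97%, 2.64% and 2.97% lay below NF without overlap in these comparisons, which share the same NF mice. Pdk2, a relative of Pdk4, was the gene of these 60 with the smallest unadjusted p in HF-Sugar against HF, at -0.61 ± 0.16 (SE; unadjusted p = 0.00335, limma adjusted p = 0.9999), followed by Amacr (-0.47 ± 0.16) and Acox2 (-0.89 ± 0.32), both enzymes of branched-chain and bile acid oxidation in peroxisomes.

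Among the classical targets outside the 35 genes, Fabp1, a fatty acid binding protein of enterocytes, varied widely, at 43.2, 5.78 and 52.2 RPKM in NF, 16.3, 35.6 and 207 in NF-Sugar, 281, 4.5998 and 111 in HF and 30.8, 27.004 and 10.9 in HF-Sugar mice. HF M1 and NF-Sugar M3 were the highest and NF M2 and HF M2, both libraries that stood apart, the lowest, so that the groups overlapped and the log2 difference of HF-Sugar and NF was -0.24 ± 1.38 (SE). Cd36, a fatty acid uptake receptor, differed by -0.11 ± 0.25 between HF-Sugar and NF on a mean of 1.58 RPKM. Cyp4a10, a strong PPAR-alpha target of liver, was listed between 0.0172 and 1.21 RPKM and was not tested. In HF against NF, Acsl3 (-0.53 ± 0.16) and Oxct1 (-0.50 ± 0.17) had an unadjusted p under 0.05, both lower, beside Pparg, where 1.51% of all genes did.

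Some members share transcript sequence or exon positions with other genes, and whether they share reads was not tested. Acot1 and Acot2 shared 13.6% and 24.5% of their transcripts' 50-base words with each other, and Acaa1a and Acaa1b 12.4% and 30.5%, so that the values within each pair are uncertain. Exons of other genes covered over 10% of the exon bases of Acadvl (42.9%, by Dvl2 on the other strand), Etfb (58.2%, on the same strand) and Acaa1b (11.4%), and whether reads were counted by strand was not given in the sources used here.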

How the data were processed

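Total RNA of the ileum of each mouse, with an RNA integrity number above the study's limit, went into Ion Total RNA-Seq libraries. By the paper's methods, mRNA was first isolated from the total RNA and depleted of ribosomal RNA. The authors mapped the reads to GRCm38 (mm10) with STAR in Partek Flow and quantified Ensembl Transcripts, and the deposited values are RPKM per gene symbol, in 1 table whose columns equal the 12 per-sample files. Rows named by a bare number (26, at most 0.135% of a library's RPKM) were left out. No read counts were among the files, so reads were estimated from the whole-read steps of low RPKM and GENCODE M21 exon lengths, and 89.6% to 92.2% of the low values came out whole within 0.03. Depth limits the precision of low genes only approximately, as these reads are estimates.

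RPKM were scaled between libraries by an unweighted trimmed mean of M values (30% and 5% trimmed at each end), and limma 3.58.1 (R 4.3.3, trend on) was fitted to log2(scaled RPKM + 1) for the 17662 genes with at least 0.5 RPKM in at least 3 libraries, all 12 libraries in 1 fit, with Benjamini-Hochberg adjusted p under 0.05 as the call. All tests are two-sided, fold changes on this scale understate the change of low genes, and the steps were tested on simulated data. The study's own count test could not be applied to RPKM. Full statistics were given for Cpt1a, Pdk4, Angptl4 and Plin2 and for up to 5 of the 35 genes per comparison with the smallest unadjusted p under 0.05, and of the 71 further genes up to 3 per comparison, beside Ppara, Pparg, Fabp1, Cyp4a10 and Cd36; other genes of this rule are not reported here. Other genes given with values (such as Acadm, Acsl5, Creb3l3, Acot1, Acot2 and Ppard) were chosen after their values were seen. The genes and lists were chosen with earlier results of these data known.

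Same-numbered mice deviated together, with a correlation over 0.1 for every pair, only between HF-Sugar and NF (0.19, 0.51 and 0.23) and between HF-Sugar and HF (0.49, 0.56 and 0.13). The labels do not say that a number marks a shared litter, cage or day, so the mice were treated as unpaired and a fit with the replicate number as a block was run beside it. Alternatives tried were other scalings, pseudocounts and filters, leaving out libraries, a library cluster term, limma-voom on the estimated reads and pairs of groups alone. Sequences are from RefSeq (GRCm38.p6), and Python 3.11.15 was used for these.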

Additional observations from a re-analysis of the deposited data

How the results depend on the processing

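No member passed the adjusted threshold in any comparison or under any alternative run, by limma or by limma-voom, so the number called was 0 throughout; the counts at an unadjusted p under 0.05 stand beside each comparison. Under the replicate block with all 12 mice the median log2 difference between HF-Sugar and NF was -0.19, and with the paired groups alone, an alternative chosen after seeing the data, it was -0.19 between HF-Sugar and NF and -0.29 between HF-Sugar and HF. The paired fit changed no call. Leaving out the libraries that stood apart, so that M1 and M3 of both groups remained, moved the median between HF-Sugar and NF to -0.37, and the cause was not tested. Over the fits that each left out 1 mouse this median ran from -0.26 to -0.14. The Plin2 difference between HF-Sugar and NF was 0.030 on RPKM as deposited and ran from -0.16 to 0.086 over the fits that left out 1 mouse. The Cpt1a difference for fat averaged over drinks ran from -0.0099 to 0.10 over those fits. The medians of HF against NF, NF-Sugar against NF and fat averaged over drinks turned sign without a single mouse, with ranges over all alternatives of -0.05 to 0.13, -0.13 to 0.02 and -0.11 to 0.01. The other 5 medians kept their sign. With 3 mice a group the median SE was 0.18 on the log2 scale, so that small differences were not detectable at this size, and a filter at a mean of 5 RPKM left 31 of the 35 genes. Under this filter 58% of all genes were lower in HF-Sugar than in NF-Sugar mice, and 60% were lower for sugar averaged over diets.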
